A study of Mus musculus with 16 samples.

Results

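The mandible of the E11.5 mouse embryo was compared between 4 embryos that had lost Srf in the neural crest and 4 control embryos. The comparison rests on 8 mandible libraries of 16 in the series, taken by the tissue named in the sample labels, and the other 8 libraries come from the frontonasal prominence (FNP) of the same embryos. Embryos 3, 4, 5 and 6 were the mutants, with the genotype Srf flox/flox; Wnt1-Cre. Embryos 1 and 7 were controls with the genotype Srf flox/+; Wnt1-Cre, embryo 2 was a Srf flox/flox control without Cre, and embryo 8 was a Srf flox/+ control without Cre. Every embryo therefore carried at least 1 floxed Srf allele, and 2 of 4 controls also carried the Cre. The design table placed embryos 1 to 5 in the first litter and embryos 6 to 8 in the second, so the second litter holds 1 mutant and 2 controls. Polyadenylated RNA of each dissected mandible was sequenced as its own library, so that the embryo is the replicate.

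Serum response factor (SRF) is a transcription factor that binds a short A/T-rich element, the CArG box, in the regulatory DNA of its targets. It acts with partner proteins of 2 families. The myocardin-related transcription factors (MRTFs) are held back by monomeric actin and link SRF to genes of the actin cytoskeleton, while the ternary complex factors (TCFs) respond to ERK signalling and link SRF to immediate early genes. Neural crest cells build most of the mesenchyme of the jaw, and the Wnt1-Cre transgene is active in the crest lineage. The ectoderm that covers the mandible, its mesodermal muscle core, the endothelium of its vessels and its blood do not come from that lineage and keep their Srf alleles. The tissue was sequenced whole, so fewer cells of a type and less RNA per cell cannot be told apart in any value below.

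In this comparison 14 of 14004 genes tested were lower in the mutant mandible, and no gene passed the same threshold in the other direction (limma on log2 of the deposited gene value + 0.5, allowing for litter; the threshold was a p of 0.05 after Benjamini-Hochberg adjustment). Calls in the lower direction thus made up 0.1% of the genes tested, and calls in the higher direction 0%. The called genes encode cytoplasmic actins (Actb, Actg1), proteins that bind, cross-link or turn over actin filaments (Cnn2, Tpm4, Wdr1, Lima1, Flna), adhesion and LIM domain proteins (Vcl, Fhl2, Pdlim7), SRF itself, the little-studied Ubald1, and a pair of processed pseudogenes, Gm8399 and Gm16385. For all 14, each of the 4 mutant libraries lay below each of the 4 control libraries, which by itself places the mutant of the second litter below both controls of its own litter. Their log2 fold changes ran from -0.57 for Tpm4 to -2.08 for Srf, against a median absolute log2 fold change of 0.0872 over all genes tested. At an unadjusted p under 0.05 the same test passed 469 genes in the lower direction (3.35%) and 539 in the higher direction (3.85%), which is the pool from which single calls need the adjustment. Of the 14004 genes tested, 6703 had a log2 fold change below 0 and 7301 above 0. These are the background for each count of list members below or above 0 that follows.

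**Figure D1:**
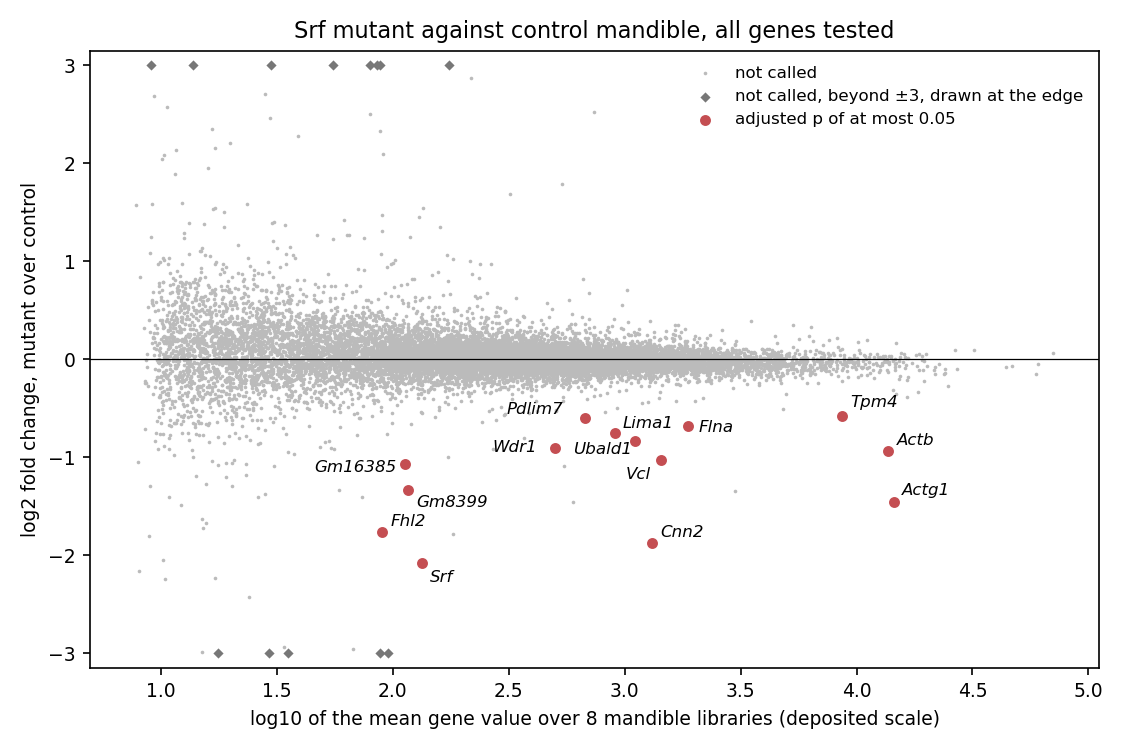
Each point is a gene tested in the mandible, with log10 of its mean gene value over the 8 libraries on the x axis and its log2 fold change, mutants over controls, on the y axis. The 14 called genes (red) lie between -0.57 and -2.08. The uncalled genes fan out toward low values, and diamonds mark those beyond ±3, drawn at the edge.

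The libraries were alike in quality. No 2 of them held identical values, and their log2 gene values correlated pairwise at 0.967 to 0.982. Mitochondrial genes took 3.33 to 4.39% of the TPM (length-normalised transcript abundance, as the authors scaled it). The depth of a library could be read only relative to the deepest mandible library, from the step of the low values: control embryo 7 was the shallowest at 51.3% and embryo 4 the shallowest mutant at 67.6%. Jaw mesenchyme markers fitted the label, since Hand2, which specifies the ventral jaw, stood at 167 to 198 TPM in controls and 178 to 206 TPM in mutants, whereas 11 of 14 FNP and forebrain markers, Six3 among them, stayed under 1 TPM in every mandible library. Levels below are TPM, listed for controls 1, 2, 7 and 8 and for mutants 3, 4, 5 and 6 in that order, and fold changes are those of the fit. Counts of genes without overlap between the groups were made on the deposited gene values, not on TPM.

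The CArG boxes of the called genes are shown here because they are the element that SRF binds. RefSeq promoter windows on GRCm38.p6, from 250 bases before to 50 bases after a gene start, were searched for exact CArG boxes, which read alike on both strands. Of the 14 called genes 11 have such a window, and 6 of these 11 hold a CArG box, compared with 1.62% of the 10445 tested genes that have a window and 1.63% of all 32851 windows. The 8 boxes are printed below in 40-base stretches, 5′ to 3′ on the strand of the gene, with the box in capitals. They belong to Actg1 (chromosome 11, 120348561 to 120348600, minus strand, box starting at -90 from the gene start), Cnn2 (chromosome 10, 79988529 to 79988568, plus strand, -56), Vcl (chromosome 14, 20929156 to 20929195, plus strand, -227), Lima1 (chromosome 15, 99820172 to 99820211, minus strand, -47 from a RefSeq start that lies inside the annotated gene), Fhl2 at each of its 2 gene starts (chromosome 1, minus strand, 43196833 to 43196872 and 43163968 to 43164007, -96 and -31) and Srf itself (chromosome 17, minus strand, 46556220 to 46556259 and 46556200 to 46556239, -82 and -62).
Actg1: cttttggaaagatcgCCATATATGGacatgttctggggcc
Cnn2: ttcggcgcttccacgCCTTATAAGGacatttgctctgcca
Vcl: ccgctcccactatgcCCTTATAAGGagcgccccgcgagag
Lima1: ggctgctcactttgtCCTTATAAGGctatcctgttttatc
Fhl2, upstream start: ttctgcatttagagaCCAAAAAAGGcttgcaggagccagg
Fhl2, downstream start: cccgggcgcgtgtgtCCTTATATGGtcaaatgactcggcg
Srf, distal box: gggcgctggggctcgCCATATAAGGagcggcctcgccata
Srf, proximal box: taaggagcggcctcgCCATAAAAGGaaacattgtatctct
Vcl and Lima1 carry the same 10-base box as Cnn2. No exact box lies in the windows of Wdr1, Tpm4, Flna, Ubald1 and Pdlim7, which says only that these letters are not in this stretch.

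Of the 169 tested genes that hold a box, 6 were called lower (3.55%, beside 0.1% of all genes tested) and 163 were not called. In 81 of the 169 the log2 fold change was below 0, beside 6703 of the 14004 genes tested. Their median log2 fold change was 0.00, beside 0.01 over all genes tested. At an unadjusted p under 0.05, 14 of the 169 lay in the lower direction (8.28%, beside 3.35% of all genes tested) and 5 in the higher (2.96%, beside 3.85%). The shares in the lower direction include the 6 called genes, and none of them was tested against the background. Beyond the 6 called genes, the uncalled box genes with the lowest p in the lower direction were Ckap2l, a spindle protein (log2 fold change -0.19), Nr2f6, an orphan nuclear receptor (-0.56), Myl9, a myosin regulatory light chain (-0.77), and Fermt2, the integrin activator kindlin-2 (-0.25). These last 4 were chosen after their values were seen.

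Srf, the targeted gene, was lower in every mutant mandible. Controls stood at 48.1, 65.9, 34.4 and 56.9 TPM and mutants at 11.6, 14.1, 12.5 and 10.8 TPM. The groups do not overlap, and the highest mutant had 14.1 TPM against 34.4 TPM in the lowest control, embryo 7, which is heterozygous for the floxed allele and carries Wnt1-Cre. The means were 51.3 ± 13.4 TPM in controls and 12.2 ± 1.42 TPM in mutants (SD, n = 4 each), and the difference had a two-sided exact permutation p of 0.0286, the smallest that 4 against 4 embryos allow over 70 arrangements. The fit gave a log2 fold change of -2.08 (SE 0.179, adjusted p = 0.00102), or 23.6% of the control level. What remains includes the cells of the mandible outside the crest lineage, whose share was not measured.

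The SRF partner genes gave no call. Of 7 genes on the list 6 could be tested, among them Mamstr, which is a coactivator of MEF2 factors and no known partner of SRF. The MRTF gene Mrtfa stood at 21.1 ± 1.43 TPM in controls and 21.2 ± 1.09 TPM in mutants (SD, n = 4), with a log2 fold change of -0.01 (95% interval -0.19 to 0.17). Mrtfb was at 17.3 ± 2.13 and 15.002 ± 0.785 TPM, a log2 fold change of -0.22 (95% interval -0.42 to -0.03, adjusted p = 0.68). It was the only tested gene of this list whose interval left out 0, and its groups overlapped. Among the TCF genes Elk3 was the most abundant at 68.6 ± 1.24 and 71.2 ± 5.41 TPM, and the intervals of the log2 fold change were -0.08 to 0.21 for Elk3, -0.02 to 0.26 for Elk1 and -0.29 to 0.26 for Elk4. Myocd, the founding member of the MRTF family and a cardiac and smooth muscle factor, was at most 0.601 TPM in any library and was not tested, and Mamstr, at 0.206 to 2.52 TPM, could not be resolved (95% interval -2.32 to 0.75).

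Actg1, which encodes cytoplasmic gamma-actin (chromosome 11, 120345690 to 120348542), had the smallest p of all genes. It stood at 3260, 2914, 2722 and 2741 TPM in controls and at 1100, 1103, 1158 and 986 TPM in mutants. The mutant values lie within a narrow band at 36.5% of the control level, a log2 fold change of -1.45 (SE 0.0491, adjusted p = 1.03e-06). Actb, the cytoplasmic beta-actin gene (chromosome 5, 142903115 to 142906754), stood at 2565, 2560, 2380 and 2629 TPM in controls and 1309, 1388, 1404 and 1238 TPM in mutants. Its level was 52.2% of control (log2 fold change -0.94, SE 0.0501, adjusted p = 2.74e-05). The intervals of the 2 fold changes, -1.56 to -1.34 and -1.05 to -0.83, do not meet. Together these transcripts took 0.523 to 0.548% of the TPM in control mandibles and 0.230 to 0.253% in mutants.

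No muscle actin was called. Acta2, the smooth muscle actin, stood at 7.96, 4.93, 11.995 and 27.5 TPM in controls and 36.3, 9.81, 9.41 and 20.6 TPM in mutants, so the groups overlap (log2 fold change 0.87, 95% interval -0.19 to 1.92, adjusted p = 0.714). Actc1, the cardiac actin also made by early skeletal muscle, had a log2 fold change of 0.74 (95% interval -0.27 to 1.74). Acta1 reached at most 1.74 TPM and Actg2 at most 0.858 TPM in any library, and neither was tested. Of the 6 actin isoforms, then, 4 were tested and 2 were called lower, with a list median of -0.10.

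The called pseudogenes share much of their sequence with Actg1. Gm8399 (chromosome 13, 81064684 to 81065800) is a processed pseudogene of which 76.0% of the 31-base words of its transcript also occur in Actg1, and for Gm16385 (chromosome 16, 64917983 to 64919084) the share is 44.7%. In both cases Actg1 was the gene sharing the most words, but others came close. Gm12715 held 72.2% of the words of Gm8399, and Actg-ps1 held 43.8% of those of Gm16385. Gm8399 stood at 17.7, 18.01, 17.1 and 13.1 TPM in controls and 5.52, 7.15, 6.57 and 7.04 TPM in mutants (log2 fold change -1.34, SE 0.143, adjusted p = 0.00448). Gm16385 stood at 17.7, 17.3, 13.2 and 13.2 TPM against 6.01, 8.75, 7.31 and 8.001 TPM (log2 fold change -1.07, SE 0.153, adjusted p = 0.0438), and its call was lost in 17 of 26 alternative settings. The levels of both pseudogenes are uncertain, because reads from the shared stretches could have been split between them, Actg1, Gm12715 and Actg-ps1.

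Cnn2, calponin 2 of non-muscle cells, which binds actin filaments, had the next smallest p. The gene (chromosome 10, 79988584 to 79996062) stood at 123, 131, 102 and 133 TPM in controls and 37.1, 33.2, 33.8 and 32.1 TPM in mutants. That is 27.3% of control (log2 fold change -1.87, SE 0.0864, adjusted p = 1.02e-05), the largest fold change of any called gene other than Srf. Its relative Cnn3, which is more abundant in this tissue, was at 520 ± 22.3 TPM in controls and 539 ± 15.1 TPM in mutants (SD, n = 4), and the interval of its log2 fold change, -0.05 to 0.16, lies far above the value for Cnn2. Tagln, Tagln2 and Tagln3, the transgelins, had log2 fold changes of -0.18, 0.07 and -0.16. Of the 6 calponins and transgelins 5 were tested and 1 was called, and Cnn1, the smooth muscle calponin, was too low to test.

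Of the 18 LIM domain proteins of the actin cytoskeleton listed, 16 were tested and 3 were called lower. Fhl2 encodes a LIM-only protein that binds SRF and integrins, and the gene lies on chromosome 1 from 43123074 to 43196984. It was a low transcript, at 11.3, 9.54, 8.69 and 11.47 TPM in controls and 2.36, 2.76, 3.38 and 3.47 TPM in mutants (log2 fold change -1.77, SE 0.171, adjusted p = 0.00224). Lima1, also known as EPLIN, a protein that stabilises actin bundles at cell junctions (chromosome 15, 99778470 to 99875456), was at 87.2, 104, 84.8 and 88.7 TPM in controls and 54.2, 49.2, 50.6 and 52.4 TPM in mutants (log2 fold change -0.83, SE 0.0730, adjusted p = 0.00105). Pdlim7, a PDZ and LIM protein of actin fibres (chromosome 13, 55495795 to 55513676), was at 95.7, 110, 75.4 and 94.7 TPM in controls and 66.1, 64.2, 68.9 and 58.9 TPM in mutants (log2 fold change -0.60, SE 0.0844, adjusted p = 0.0420). The call of Pdlim7 stands near the threshold and was kept in only 1 of 8 fits that left out a library. The other members spread about 0: the list median was 0.00, and the abundant Csrp2, a LIM protein of smooth muscle and mesenchyme, was at 411 ± 51.9 and 385 ± 42.5 TPM (log2 fold change -0.13, 95% interval -0.31 to 0.06).

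**Figure D2:**
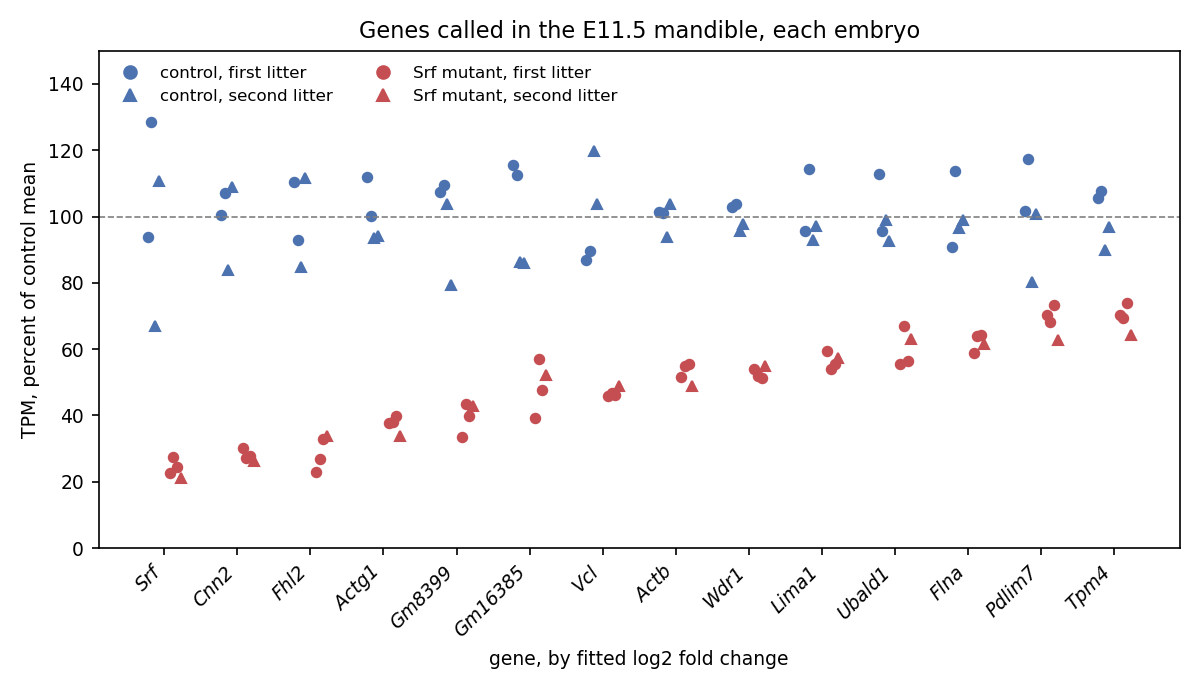
TPM of the 14 called genes in each of the 8 mandible libraries, as a percentage of the control mean of the gene; blue marks controls and red mutants, circles the first litter and triangles the second. The mutants of Srf, Cnn2 and Fhl2 lie lowest, and no mutant of any of these genes reaches a control.

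Adhesion linkers gave 2 calls among 23 genes tested. Vcl encodes vinculin, which couples talin and alpha-catenin to actin at adhesions, and the gene (chromosome 14, 20929398 to 21033676) stood at 40.01, 41.3, 55.1 and 47.8 TPM in controls and 21.1, 21.6, 21.2 and 22.5 TPM in mutants. The fit put the mutants at 49.0% of control (log2 fold change -1.03, SE 0.0680, adjusted p = 0.000152). Flna encodes filamin A, which cross-links actin filaments and anchors integrins (chromosome X, 74223461 to 74249820). It was at 311, 390, 331 and 339 TPM in controls and 201, 220, 221 and 211 TPM in mutants (log2 fold change -0.68, SE 0.0724, adjusted p = 0.00448). Some partners of vinculin and filamin had intervals that spanned 0. Tln1, the talin that recruits vinculin, had a log2 fold change of -0.07 (95% interval -0.27 to 0.12), the actinin Actn4 -0.01 (-0.13 to 0.12) and the scaffold Pxn 0.02 (-0.11 to 0.15). In 5 of the 23 genes the mutants lay wholly below the controls, against 0.957% of all genes tested, and besides Vcl and Flna these were Tgfb1i1 (Hic-5, log2 fold change -0.54), Fermt2 (-0.25) and Actn1 (-0.18), none of them called. The 95% interval of Tgfb1i1, -0.91 to -0.16, did not span 0. At an unadjusted p under 0.05, 6 of the 23 lay in the lower direction (beside 3.35% of all genes tested) and 2 in the higher (beside 3.85%).

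Wdr1 was the call among 24 genes of actin filament turnover. Its product helps cofilin to take filaments apart, and the gene lies on chromosome 5 from 38526813 to 38563221. Controls stood at 135, 136, 125 and 128 TPM and mutants at 70.5, 67.7, 67.0 and 71.9 TPM (log2 fold change -0.91, SE 0.0628, adjusted p = 0.000189). Other members of the same machinery lay closer to the controls and did not pass the test. The coronin gene Coro1c had a log2 fold change of -0.31, the destrin gene Dstn -0.26 and the cofilin gene Cfl1 -0.22 (adjusted p of 0.360, 0.394 and 0.499), while the profilin gene Pfn1 was at -0.11 and the thymosin gene Tmsb4x at 0.02. The list median was -0.07, with 18 of 24 members below 0.

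Tpm4, a tropomyosin of non-muscle actin filaments (chromosome 8, 72134975 to 72153142), was the most abundant called gene after the actins. Its controls stood at 521, 533, 444 and 478 TPM and its mutants at 347, 342, 364 and 318 TPM (log2 fold change -0.57, SE 0.0465, adjusted p = 0.000676). This was the smallest change that the test called. Among 13 tropomyosin and nonmuscle myosin II genes, 11 had a log2 fold change below 0 and the list median was -0.14. Myl9, the regulatory light chain, had the largest of these at -0.77, with 25.1, 28.6, 23.3 and 44.4 TPM in controls and 17.4, 12.7, 13.5 and 20.6 TPM in mutants. Its groups do not overlap, but with an SE of 0.213, against 0.0465 for Tpm4, it was not called (adjusted p = 0.608). Myl12a was at -0.26 and Tpm1 at -0.25, both with an adjusted p above 0.5, and the heavy chain Myh9 at -0.17 (95% interval -0.37 to 0.03).

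Ubald1, which encodes a protein with a ubiquitin-associated-like domain and has no settled role, completes the called set. The gene lies on chromosome 16 from 4874778 to 4880315. It stood at 36.6, 31.1, 32.1 and 30.1 TPM in controls and 17.98, 21.7, 18.4 and 20.4 TPM in mutants, which is 59.4% of control (log2 fold change -0.75, SE 0.0880, adjusted p = 0.00927). No list holds it.

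Other parts of the cytoskeleton gave no call. None of 9 Arp2/3 subunits, which nucleate branched filaments, passed the test. Their list median was -0.02, and Arpc2 was at 249 ± 6.27 and 249 ± 10.6 TPM (95% interval of the log2 fold change -0.11 to 0.08). The 14 formins, which elongate unbranched filaments, had a median of 0.04. All 13 tubulins tested lay below 0, with a median of -0.17, and 7 of 13 had an unadjusted p under 0.05. Over all genes tested 6703 of 14004 lay below 0, and 3.35% reached that p in the lower direction. The tubulins furthest below were Tubb3, a neuronal isotype (log2 fold change -0.65), and Tubb6 (-0.43), and the abundant Tuba1a stood at 898 ± 42.3 TPM in controls and 795 ± 57.7 TPM in mutants (-0.20, adjusted p = 0.624).

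**Figure D3:**
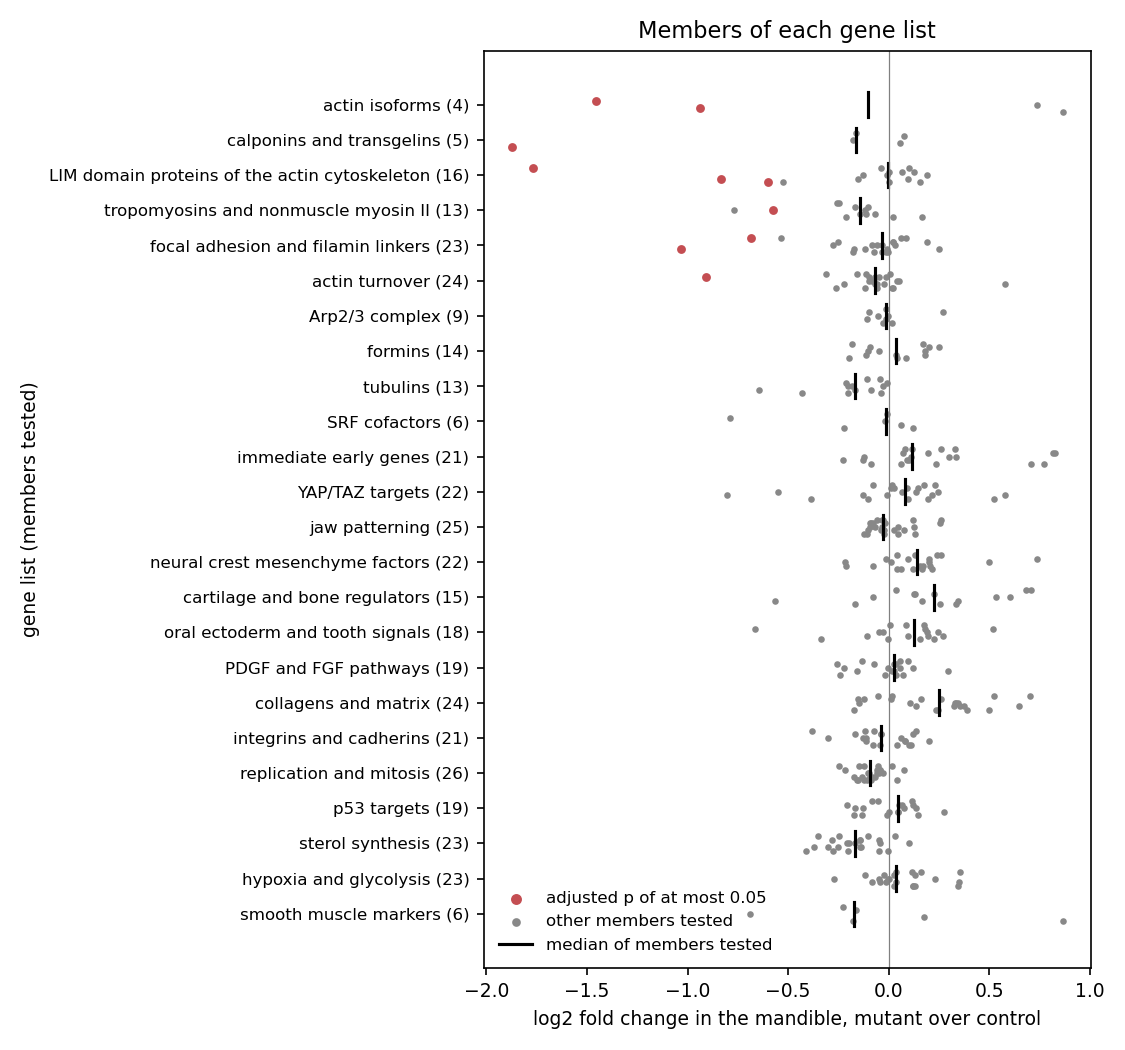
Log2 fold change in the mandible of each tested member of the process lists, with called members in red and the list median as a bar. The called genes fall in the actin, calponin, LIM domain, tropomyosin, adhesion and turnover lists, whose medians stay between -0.16 and 0.00.

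Past the called set, the uncalled genes with a mean value of at least 50, no overlap and the lowest p in the lower direction included Plekho1, Fhl3, Ccn1, Ocel1, Coro1c, Gm14440, Upp2, Uba7, Clcn1, Myl12a and Acap3. Plekho1, a membrane-bound regulator of actin and of bone formation, came closest, at 179, 182, 159 and 149 TPM in controls and 135, 136, 147 and 128 TPM in mutants (log2 fold change -0.33, SE 0.0551, adjusted p = 0.145). Fhl3, the muscle relative of Fhl2, stood at 49.6, 46.6, 49.3 and 51.4 TPM against 36.1, 28.5, 29.9 and 39.7 TPM (-0.52, adjusted p = 0.213). In the other direction the 12 were Otulinl, Mpdu1, Eef1a1-ps1, Abca7, Rcn3, Dtnb, Twist1, Fut10, Mxra8, Hook2, Gm10146 and Prrg2. Mpdu1, needed for the use of dolichol-linked mannose in glycosylation, stood at 76.7, 79.4, 74.5 and 58.9 TPM in controls and 103, 96.1, 110 and 91.4 TPM in mutants (log2 fold change 0.43, adjusted p = 0.302). Twist1, a mesenchymal transcription factor of the crest, stood at 499, 450, 506 and 486 TPM in controls and 660, 520, 545 and 509 TPM in mutants (0.24, adjusted p = 0.436). Genes without overlap made up 0.957% of those tested in the lower and 1.37% in the higher direction, so separation of the 4 and 4 values alone is no call.

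The immediate early genes, which include the targets of the TCF branch, gave no call. Of 27 immediate early genes 21 were tested and 17 of 21 had a log2 fold change above 0 (beside 7301 of 14004 genes tested), with a median of 0.11. An unadjusted p under 0.05 was reached by 4 of the 21 in the higher direction (beside 3.85% of all genes tested) and by 1 in the lower (beside 3.35%). Egr1, an ERK-induced zinc finger factor, stood at 2.98, 1.57, 2.25 and 2.39 TPM in controls and 4.08, 3.55, 3.02 and 4.94 TPM in mutants (0.82, 95% interval 0.37 to 1.28, adjusted p = 0.482). Junb, a subunit of AP-1, stood at 7.31, 4.26, 3.07 and 4.06 TPM against 9.25, 10.8, 9.31 and 6.09 TPM (0.77, adjusted p = 0.436). Fos, the classic SRF target of this class, was at 1.44 ± 0.266 and 1.93 ± 0.307 TPM, with an interval of -0.33 to 0.99. All 3 are low transcripts, which limits their precision. Egr1 was called higher when control embryo 1, the highest control, was left out.

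The YAP and TAZ target list, which shares genes with the MRTF branch, split. Of 22 members tested none was called and the median was 0.08. Ccn1, a matricellular protein, had the lowest value at 28.3, 20.2, 20.8 and 21.7 TPM in controls and 15.7, 14.59, 10.2 and 13.1 TPM in mutants, without overlap (log2 fold change -0.80, SE 0.154, adjusted p = 0.232), and it was called only with Y-linked transcripts as a covariate. Its relative Ccn2 was at -0.55 with overlapping groups. Tgfb2 (0.52) and Myof (0.58) lay on the other side. The 19 PDGF and FGF pathway genes had a median of 0.03, with Pdgfra, the receptor of the crest mesenchyme, at 116 ± 14.4 and 120 ± 7.42 TPM.

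Genes that pattern the jaw gave no call. None of the 25 had an unadjusted p under 0.05, against 3.35 and 3.85% of all genes at that p. In the deposited gene values no member was free of overlap between the groups, against 0.957 and 1.37% of all genes. Their median log2 fold change was -0.03 and their summed level was 2243 to 2378 TPM in controls and 2241 to 2369 TPM in mutants. Hand2 had an interval of -0.14 to 0.29, Dlx5, a distal jaw homeobox gene, one of -0.21 to 0.02, and Barx1, a homeobox gene of the molar mesenchyme, one of -0.24 to 0.10. The widest departure was Gsc at 0.26, with 105, 95.5, 112 and 112 TPM in controls and 113, 134, 139 and 118 TPM in mutants (adjusted p = 0.696). In TPM, unlike in the gene values, every mutant lay above every control for Gsc. Among 22 crest mesenchyme factors, 18 lay above 0 (beside 7301 of 14004 genes tested) with a median of 0.14, and their summed level was 1675 to 1844 TPM in controls and 1848 to 2052 TPM in mutants, with Twist1 the largest part of it. None was called.

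Skeletal, ectodermal and matrix programmes were also uncalled. The 15 cartilage and bone regulators tested had a median of 0.22, the 18 oral ectoderm and tooth signals 0.13 and the 24 collagens and matrix genes 0.25. Fgf8, the ectodermal signal of the proximal jaw, stood at 24.4, 25.6, 10.3 and 12.8 TPM in controls and 8.08, 15.9, 20.9 and 9.17 TPM in mutants (log2 fold change -0.66, adjusted p = 0.692), and the low embryos were 3, 6, 7 and 8. Col1a1, a fibrillar collagen, was high in the same 4 embryos, at 32.3, 37.4, 110 and 110 TPM in controls and 76.1, 37.4, 45.7 and 83.5 TPM in mutants. Sox5, a cofactor of SOX9 in cartilage, was at -0.57 (adjusted p = 0.671). The 21 integrins and cadherins, with a median of -0.04, gave no call either.

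The sterol and the replication and mitosis lists had medians below 0, the p53 and hypoxia lists medians above 0, and none held a call. Of 23 genes of sterol synthesis and uptake 21 had a log2 fold change below 0, 9 had an unadjusted p under 0.05, and the median was -0.17. Over all genes tested 6703 of 14004 lay below 0, and 3.35% reached that p in the lower direction. Insig1, a sensor that holds back sterol synthesis, stood at 51.1, 50.9, 37.9 and 39.5 TPM in controls and 43.3, 34.1, 39.9 and 28.6 TPM in mutants, with overlapping groups (-0.41, SE 0.0775, adjusted p = 0.219). Of 26 genes of replication and mitosis 23 lay below 0, with a median of -0.09, and 7 had an unadjusted p under 0.05, all of them lower. The proliferation marker Mki67 was at 124 ± 17.5 and 108 ± 9.57 TPM (-0.25, adjusted p = 0.624). The 19 p53 targets tested had a median of 0.04 and Cdkn1a, the best known of them, an interval of -0.45 to 0.29. Of 23 hypoxia and glycolysis genes the median was 0.04, and Bnip3, Ddit4 and Egln3 lay at 0.35 each with adjusted p above 0.6.

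Summed markers of other cell types overlapped between mutants and controls in every list. Skeletal muscle markers summed to 46.5 to 127 TPM in controls and 56.8 to 138 TPM in mutants, surface ectoderm markers to 342 to 413 and 365 to 407 TPM, endothelial markers to 310 to 341 and 330 to 371 TPM, and erythroid markers to 13580 to 18829 and 11854 to 24571 TPM. Neuron markers summed to 76.0 to 122 and 67.4 to 114 TPM, markers of glia and Schwann precursors to 16.9 to 37.6 and 21.2 to 36.2 TPM, crest mesenchyme markers to 2227 to 2435 and 2295 to 2556 TPM, and the FNP and forebrain list to 39.5 to 52.8 and 35.9 to 56.7 TPM. No member of these lists was called. Macrophage markers, at 31.7 to 42.5 TPM in controls and 40.2 to 46.1 TPM in mutants, had 11 of 12 tested members above 0, with C1qa at 2.04, 1.32, 1.44 and 1.85 TPM against 3.81, 2.68, 2.30 and 3.47 TPM (log2 fold change 0.88, adjusted p = 0.624). Smooth muscle markers, several of them known SRF targets, summed to 54.0 to 89.3 and 53.2 to 84.6 TPM, and 5 of 10 stayed under 1 TPM.

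**Figure D4:**
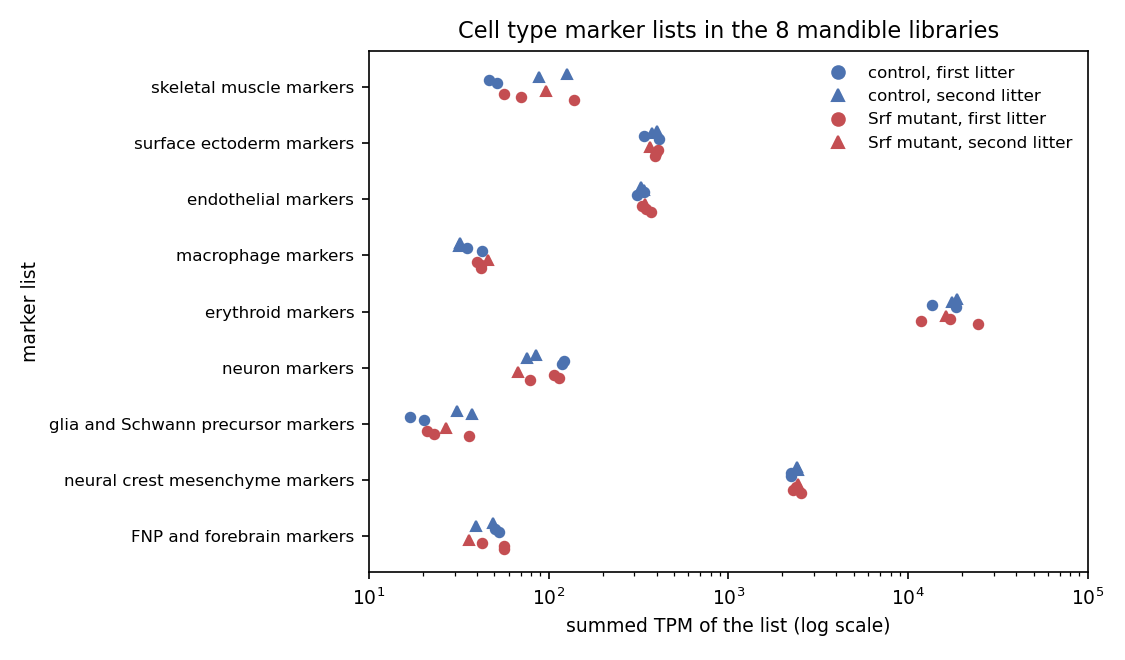
Summed TPM of each cell type marker list in the 8 mandible libraries on a log scale, with controls in blue and mutants in red, circles for the first litter and triangles for the second. The groups overlap in every list, and the muscle list spreads from 46.5 to 138 TPM across embryos.

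More genes differed by litter than by genotype. In the same fit 612 genes differed between the litters (4.37% of those tested). The first principal component, with 29.6% of the variance, set embryos 3, 6, 7 and 8 apart from embryos 1, 2, 4 and 5. Myog, which drives muscle differentiation, followed that order, at 13.9, 11.1, 7.47 and 10.02 TPM in the former and 2.67, 2.004, 4.16 and 3.42 TPM in the latter. The genotype groups parted along the third component, with 14.5% of the variance, where the 4 controls scored 6.90 to 23.4 and the 4 mutants -13.4 to -15.8. The called genes were lower within each litter, by amounts that were closest for Actg1 (-1.45 in the first and -1.46 in the second litter) and Cnn2 (-1.88 and -1.87). They were furthest apart for Gm16385 (-1.26 and -0.72), Gm8399 (-1.48 and -1.08) and Fhl2 (-1.90 and -1.52), and these differences were not tested.

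The controls were not of a single kind. Transcripts of 4 Y-linked genes stood at 16.9 TPM or more in controls 1 and 7, which carry Wnt1-Cre, and at 0.505 TPM or less in controls 2 and 8, which do not. Mutants 3, 4 and 6 were like the former and mutant 5 like the latter. Cre and sex can therefore not be told apart among the controls. With the presence of Y-linked transcripts as a covariate 13 genes were called lower, 12 of them from the set of 14. Measured only against the Cre-bearing controls, 7 genes were called, all of them in that set (Actg1, Cnn2, Actb, Vcl, Wdr1, Srf and Lima1), from 6 embryos. Against the controls without Cre, 13 were called lower, 11 of them in the set.

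The FNP libraries come from the same embryos and are not independent of the mandible. They gave fold changes close to those of the mandible for most called genes. The FNP estimates were -1.39 for Actg1, -0.96 for Actb, -1.02 for Vcl, -0.88 for Wdr1, -0.53 for Tpm4, -0.75 for Lima1 and -2.03 for Srf. Cnn2 (-1.87 in the mandible and -2.25 in the FNP) and Gm8399 (-1.34 and -0.83) departed most relative to their errors, with an unadjusted p of the interaction of 0.0262 and 0.0101. Over 14630 genes the test of a difference between the tissues called no gene (0%, adjusted p of at most 0.05), with 638 genes at an unadjusted p under 0.05 and 908 once the embryo entered as a block, also without a call. No gene can thus be said to respond in the mandible only. Otulinl, an uncalled gene of unknown function, had the lowest interaction p among the called genes and the next genes by p, with a log2 fold change of 0.87 in the mandible and -0.49 in the FNP (unadjusted p of the interaction 0.000327, adjusted p = 0.999).

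**Figure D5:**
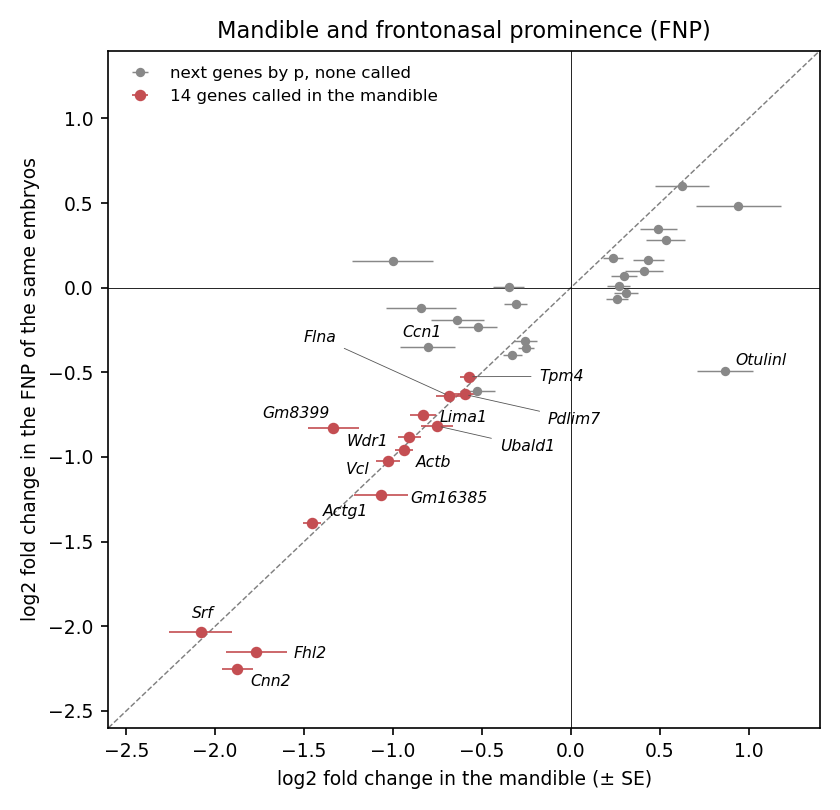
Log2 fold change, mutants over controls, in the mandible (x axis, bars ± SE) and in the FNP of the same embryos (y axis), for the 14 called genes in red and the next uncalled genes by p in grey, Gm14440 left out; the dashed line marks equal values. Among the called genes Gm8399 (-1.34 and -0.83), Cnn2 (-1.87 and -2.25) and Fhl2 (-1.77 and -2.15) lie furthest from the line, and Otulinl lies off it at 0.87 and -0.49.

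Genes beside Srf on chromosome 17 lie near the floxed allele and were chosen after their values were seen. Cul9, a cullin whose gene lies 1941 bases from Srf, stood at 3.53, 3.35, 10.3 and 5.97 TPM in controls and 8.24, 7.65, 7.98 and 11.6 TPM in mutants. Control embryo 7 lay among the mutants, and the log2 fold change of 0.97 (SE 0.180) had an adjusted p of 0.213, while without embryo 7 Cul9, Gm14303 and Npas3 were called higher. Its FNP fold change was 1.06. Ptk7, a planar polarity receptor 8296 bases away, was at 112 TPM in controls and 117 TPM in mutants (0.09), and Klc4, Mrpl2, Cul7 and Dnph1 lay between -0.10 and 0.06. Ttbk1, a tau kinase gene 60654 bases away, was low, at 0.683 to 1.86 TPM in controls and 0.563 to 0.793 TPM in mutants, with overlapping groups (-0.60, SE 0.246, adjusted p = 0.692).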

How the data were processed

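RNA-seq of 8 mandible libraries from mouse E11.5 embryos was analysed, with the 8 FNP libraries of the same embryos for the tissue comparison. According to the submitters' processing notes and the study's methods, Salmon 1.5.0 served the authors for transcript quantification against mm10, and sleuth 0.30.0-4 for the gene summary. The authors deposited 2 tables of normalised values, used here as signal rather than counts: a gene value for 15451 genes and TPM for 35639 genes, both scaled per library. Over 12431 genes the gene value followed the TPM times a constant of each gene (median coefficient of variation over libraries 0.889%), and the log of that constant correlated with the log of the median transcript length at 0.990. It is therefore a length-scaled estimate and not, as assumed when the tests were chosen, an estimated count over a size factor. Reads could not be recovered: low values were whole within 0.02 of a read for 52.7% of values in genes with 1 transcript and 7.02% in others, against 4% by chance. The study's methods report a range and a mean of reads over its samples, but not the depth of each library. For single libraries only relative depth is therefore given. Columns with the authors' own fold changes and p-values were not used, and 0 columns of other samples were present.

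The tests kept each gene whose value reached 10 in 4 or more mandible libraries. They were run in limma 3.58.1 (R 4.3.3) under a variance trend, on log2(value + 0.5), a scale that understates changes of low genes, with litter and genotype as terms. The level of Srf was also tested by an exact permutation test. Each embryo gave 1 library per tissue and counts once. Genes named are all called genes and, in each direction, the 12 uncalled genes with the lowest p among those with a mean value of at least 50 and no overlap, plus members of 33 gene lists (24 of processes, 9 of cell type markers), and any named after its values were seen is said to be so. Some genes that this rule or the lists hold are not reported here. The members and lists were chosen with earlier results of these data known. Simulated data were drawn around the fitted means and litter effects, with normal noise at the moderated spread of each gene. On these the fit called 93 of 100 genes changed by 1 on the log2 scale, 52 of 100 changed by 0.5 and 9 of 13804 unchanged genes. The simulation follows the model of the fit, without outlying libraries. It checks that the fit runs correctly and does not measure how many real changes it would find. Promoter windows and transcripts came from RefSeq on GRCm38.p6 and from the GRCm38 annotation, and gene coordinates are on GRCm38. Tables and plots were made with Python 3.11.15, pandas 2.3.3, numpy 2.4.6 and matplotlib 3.10.9. Alternatives covered scaling, filters, pseudocounts, TPM, covariates, variance models, choice of controls, litter, the replicate block and each library left out. Voom, the pair of embryos 4 and 7 left out, the Y-linked covariate and the Srf level without each library were added after seeing the data.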

Additional observations from a re-analysis of the deposited data

Results flagged for a closer look

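Of 146 groups of 4 libraries examined, 5 held a library far from the other 3, and chance flags about 1 group in 20. Gm14440 stood at 4.79 TPM in mutant embryo 4 and was listed at 0 in the other 3 mutants. Acap3 stood at 23.7 TPM in control embryo 1 and at 27.0 to 27.4 TPM in the other controls. Eef1a1-ps1 stood at 10.9 TPM in control embryo 7 and at 8.93 to 9.23 TPM in the other controls. The summed level of LIM domain proteins of the actin cytoskeleton was 968.9 TPM in mutant embryo 5 and 874.1 to 885.8 TPM in the other mutants. The summed level of focal adhesion and filamin linkers was 1458 TPM in mutant embryo 5 and 1519 to 1523 TPM in the other mutants.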

How the results depend on the processing

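Over 26 alternative settings Actg1, Cnn2, Actb, Vcl, Wdr1, Srf and Lima1 were called in 26, Tpm4 and Fhl2 in 25, Flna in 22, Gm8399 in 21, Ubald1 in 20, Pdlim7 in 13 and Gm16385 in 9, and no direction reversed. The count of genes lower in mutants fell from 14 to 7 when mutants were set against the Cre-bearing controls alone, which leaves 6 embryos. Genes were called higher under some settings: 1 with log2(TPM + 0.1) (Gm8524), 1 without the variance trend (Gm7901), 3 with only the controls without Cre (Cul9, Gm14303 and Gm4294), 2 in the first litter alone (Cul9 and Gm14303) and 3 without embryos 4 and 7 (Cul9, Gm14303 and Npas3), the last chosen after seeing the data. Leaving out each library in turn gave 10 to 15 genes lower and 0 to 3 higher, with Egr1 the gene called without control 1 and Cul9, Gm14303 and Npas3 those without control 7. The mean difference of Srf was -39.1 TPM, from -44.7 to -34.2 TPM over the same omissions, and without mutants 3, 5 or 6 (-38.8, -39.1 and -38.6 TPM) the exact permutation p was 0.0571 each. Each omission leaves 35 arrangements, and the other omissions gave a permutation p of 0.0286. Without mutants 3, 5 or 6, an arrangement that placed control embryo 7 with the mutants differed at least as much as the real one. The groups still did not overlap. The cause of the shifts in the gene counts was not tested. Of 128 genes with an absolute log2 fold change of at least 1, 7 were called and 83 had a mean value under 50.

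Replicate numbers pair the mandible with the FNP of the same embryo. The correlation of their deviations ran from -0.256 to 0.249 over embryos. In a fit of all 16 libraries 18 genes were lower and 1 higher (Mpdu1) with no replicate block, and 20 were lower and 1 higher with the replicate block, all 14 called genes among them. The tissue comparison called 0 genes with the embryo as a replicate block, and 0 to 1 gene with each embryo left out (Ikzf1 without embryo 2, adjusted p = 0.0296 by limma). Within the mandible no paired analysis was possible because mutants and controls are different embryos.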
